A study of Mus musculus with 6 samples.

Results

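The expression of 10 genes that mark endothelium or its mesodermal precursor was followed on 6 Affymetrix arrays of blood cells grown from mouse embryonic stem cells (ESCs). They were Flt1, Kdr, Nrp1, Aplnr, Tek, Tie1, Eng, Pecam1, Cdh5 and Nostrin, chosen by symbol, and all 10 were on the array, among 18193 genes named by a probe set of a single symbol. The comparison was between genotypes, with 3 arrays each: Gata3+/- cells, which keep an intact copy of Gata3, and Gata3-/- cells, which have none. ESCs of both genotypes were differentiated on stromal OP9 cells and on OP9-DL1, which carries a Notch ligand, with IL-7 and Flt3L present throughout, and cells described as T-cell progenitors were sorted by flow cytometry. The titles call the replicates biological, but whether they came from separate cultures or ESC clones is not stated, so p-values measure the spread between these arrays. Neither the disrupted part of Gata3 nor the markers of the sort is stated in the labels.

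Blood and endothelium arise from a shared mesodermal precursor, the haemangioblast, which carries KDR. KDR is the main signalling receptor for VEGF-A. FLT1 binds the same ligand tightly but signals weakly and, partly in a soluble form, holds ligand away from KDR, and NRP1 is a coreceptor that presents VEGF to KDR and also binds class 3 semaphorins. APLNR is the apelin receptor of early mesoderm and of sprouting vessels. TEK is the angiopoietin receptor and TIE1 its partner without a firmly established ligand of its own, while ENG is a coreceptor for BMP and TGF-beta ligands. PECAM1 and CDH5, the VE-cadherin, are adhesion molecules of endothelial junctions, and PECAM1 is also carried by platelets and leukocytes. NOSTRIN is an adaptor that binds endothelial nitric oxide synthase (eNOS) and directs its traffic. Several of these genes, such as Tek, Eng, Pecam1 and Nrp1, are also used by blood cells, so the list does not by itself mark endothelial cells.

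The upstream sequences of Flt1, Kdr, Nrp1 and Nostrin are shown because Flt1, Nrp1 and Nostrin changed between genotypes and Kdr, the partner receptor of Flt1 and Nrp1, did not pass the test. Each is the 250 bases before the gene's start, 5′ to 3′ on the gene's strand, from RefSeq on GRCm38.p6. They lie at chr5:147726012-147726261 on the minus strand (Flt1), chr5:75978456-75978705 on the minus strand (Kdr), chr8:128358823-128359072 on the plus strand (Nrp1) and chr2:69135550-69135799 on the plus strand (Nostrin). Capitals mark GGAAGT, a core of the sites bound by ETS factors, or its reverse complement ACTTCC.
Flt1: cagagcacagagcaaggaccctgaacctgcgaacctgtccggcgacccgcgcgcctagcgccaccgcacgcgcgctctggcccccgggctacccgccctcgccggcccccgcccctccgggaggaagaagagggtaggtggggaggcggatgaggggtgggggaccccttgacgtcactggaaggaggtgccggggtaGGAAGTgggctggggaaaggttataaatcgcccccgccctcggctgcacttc
Kdr: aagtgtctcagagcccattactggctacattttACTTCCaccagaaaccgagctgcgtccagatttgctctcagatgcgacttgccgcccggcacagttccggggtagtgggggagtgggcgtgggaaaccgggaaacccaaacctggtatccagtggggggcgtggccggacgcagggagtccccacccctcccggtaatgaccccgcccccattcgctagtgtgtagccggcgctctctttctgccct
Nrp1: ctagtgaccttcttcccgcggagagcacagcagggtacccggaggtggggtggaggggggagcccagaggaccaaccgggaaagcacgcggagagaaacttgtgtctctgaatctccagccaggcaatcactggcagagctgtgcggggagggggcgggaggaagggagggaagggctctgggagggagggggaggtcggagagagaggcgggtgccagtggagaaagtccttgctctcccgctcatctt
Nostrin: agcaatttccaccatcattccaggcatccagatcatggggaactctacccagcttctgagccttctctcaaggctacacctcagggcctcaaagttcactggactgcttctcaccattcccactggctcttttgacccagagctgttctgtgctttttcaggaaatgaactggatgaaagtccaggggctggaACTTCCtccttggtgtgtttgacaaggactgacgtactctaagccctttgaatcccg
Of the 10 genes, 7 had such a window. GGAAGT, searched on both strands, was present in 5 of these 7 (Flt1, Kdr, Tie1, Eng and Nostrin), each with 1 match, and in 19.7% of all 32851 windows. In Flt1, Eng and Nostrin the match began 52, 53 and 57 bases before the start, and in Tie1 and Kdr 82 and 217 bases before it. The GATA words AGATAA or AGATAG, and TGATAA or TGATAG, searched on both strands, were in 0 of the 7 and in 26.5% of all windows. These are matches of letters and say nothing about which factor binds.

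Levels are log2 of the deposited GC-RMA intensity, and differences are Gata3-/- minus Gata3+/-. A log2 value of 4 was taken as the minimum, below which GC-RMA values carry little information, and a probe set was tested when it reached 4 on at least 3 of the 6 arrays. Each gene is represented by 1 tested probe set, the one of highest mean. By this rule 9 of the 10 genes were tested, 8 of which reached the minimum on every array (the exception was Flt1). With limma and Benjamini-Hochberg adjustment over all probe sets tested, 3 genes fell in Gata3-/- cells (Flt1, Nrp1 and Aplnr), 1 rose (Nostrin) and 5 did not pass. Over all 10302 genes tested 5.27% were called, 2.41% lower and 2.86% higher. The genes were chosen with earlier results of these arrays known, so their share of calls is not independent evidence about this group. The median difference of the 9 was -0.35, against -0.02 for all genes tested. The genotypes did not overlap for 5 genes lower and 2 higher in Gata3-/- cells, 7 in all. Over all genes tested, 16.7% were lower and 16.9% higher without overlap, 33.6% in all.

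**Figure D1:**
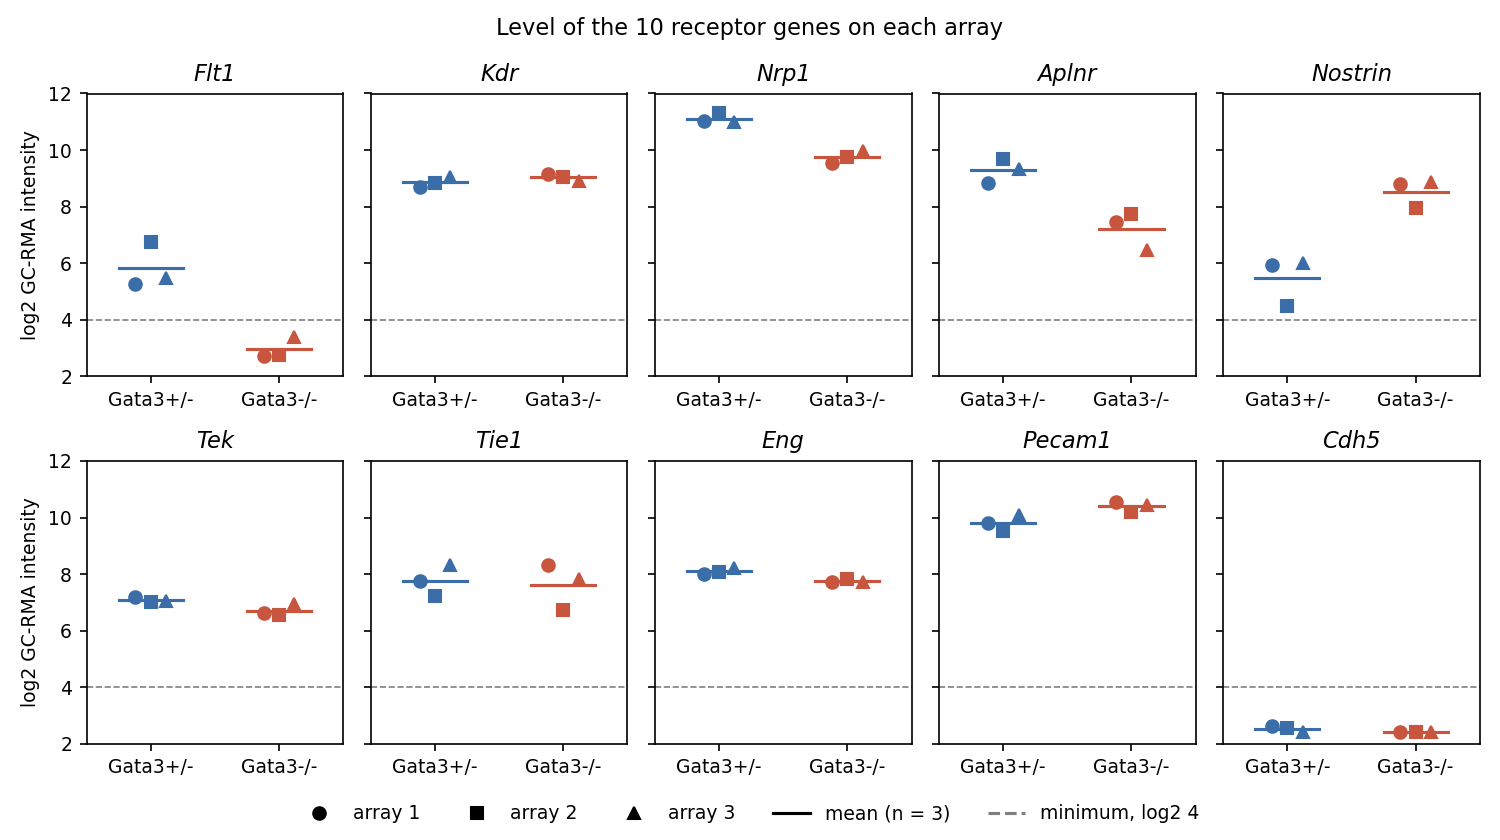
Log2 GC-RMA intensity of each gene (vertical axis) on each of the 6 arrays, by genotype; symbols give the replicate number, bars the mean of 3 arrays and the dashed line the minimum of 4. Flt1 lies under the minimum on all 3 Gata3-/- arrays, Kdr and Tie1 overlap between genotypes, and Cdh5 lies under the minimum on all 6 arrays.

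Flt1, the VEGF receptor that holds ligand away from KDR, fell below the minimum in Gata3-/- cells. Its level was 5.26, 6.74 and 5.48 on Gata3+/- arrays 1, 2 and 3, and 2.73, 2.76 and 3.38 on the Gata3-/- arrays. Every Gata3+/- array was above the minimum and every Gata3-/- array below it. Flt1 was therefore at least 3.54-fold lower in Gata3-/- cells, taking the Gata3+/- mean of 5.83 ± 0.80 (SD, n = 3) against the minimum (adjusted p = 0.0356 by limma). A second Flt1 probe set gave 4.76, 5.47 and 4.13 on the Gata3+/- arrays and 2.58, 2.96 and 2.62 on the Gata3-/- arrays. It was at least 1.72-fold lower (adjusted p = 0.0400 by limma). Both probe sets passed the filter only through the Gata3+/- arrays, where they are high, and their p-values use Gata3-/- values under the minimum, so these tests carry less weight than the bounds. Without the filter the brighter one did not pass (adjusted p = 0.0926). The remaining 2 probe sets of the gene, 1419300_at and 1440926_at, stayed under the minimum on all arrays. Which transcript forms of Flt1, membrane-bound or soluble, each probe set reads is not stated.

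Kdr differed between genotypes by less than the spread between arrays of 1 genotype. It measured 8.70, 8.84 and 9.06 on the Gata3+/- arrays and 9.15, 9.05 and 8.90 on the Gata3-/- arrays, and the genotypes overlapped. The difference was 0.17 with a 95% interval from -0.14 to 0.47 (adjusted p = 0.484 by limma), beside an SD of 0.18 over the Gata3+/- arrays. To compare the receptors directly, the log2 difference between Flt1 and Kdr was taken within each array. It fell by 3.04 between genotypes, or by 1.99 with Flt1 set to the minimum where it lay under it, and the 3 Gata3-/- arrays did not overlap the 3 Gata3+/- arrays (two-sided exact permutation p = 0.10, the smallest that 3 against 3 arrays allow).

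Nrp1 fell on every probe set that could be measured. The brightest probe set, 1448943_at, read 11.03, 11.29 and 11.01 on the Gata3+/- arrays and 9.56, 9.74 and 9.97 on the Gata3-/- arrays. The genotypes lay more than a log2 unit apart, with a spread of 0.16 and 0.21 (SD) inside them. The difference was -1.35 (SE 0.14, adjusted p = 0.0281 by limma), a 2.55-fold fall. Probe sets 1418084_at and 1448944_at gave differences of -1.73 (SE 0.15, adjusted p = 0.0281) and -1.73 (SE 0.11, adjusted p = 0.0193), falls of 3.32-fold and 3.31-fold. The fourth, 1457198_at, was under the minimum on all arrays.

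Within arrays Nrp1 fell by 1.52 relative to Kdr (two-sided exact permutation p = 0.10). Its paralog Nrp2, a coreceptor for VEGF-C and for other semaphorins, was not lower in Gata3-/- cells. Nrp2 measured 8.42, 6.81 and 8.91 on the Gata3+/- arrays and 10.19, 8.86 and 10.02 on the Gata3-/- arrays, a difference of 1.65 that did not pass (adjusted p = 0.196 by limma). The genotypes overlapped by 1 array, Gata3+/- array 3 reading above Gata3-/- array 2. The log2 difference between Nrp1 and Nrp2 within an array fell by 3.00 (two-sided exact permutation p = 0.10). These 3 comparisons of receptor pairs were chosen after the values were seen, and their p-values were not adjusted over the 3. For the pairs with Kdr, the separation already seen in Flt1 and Nrp1 set the outcome, so these p-values add no support.

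**Figure D2:**
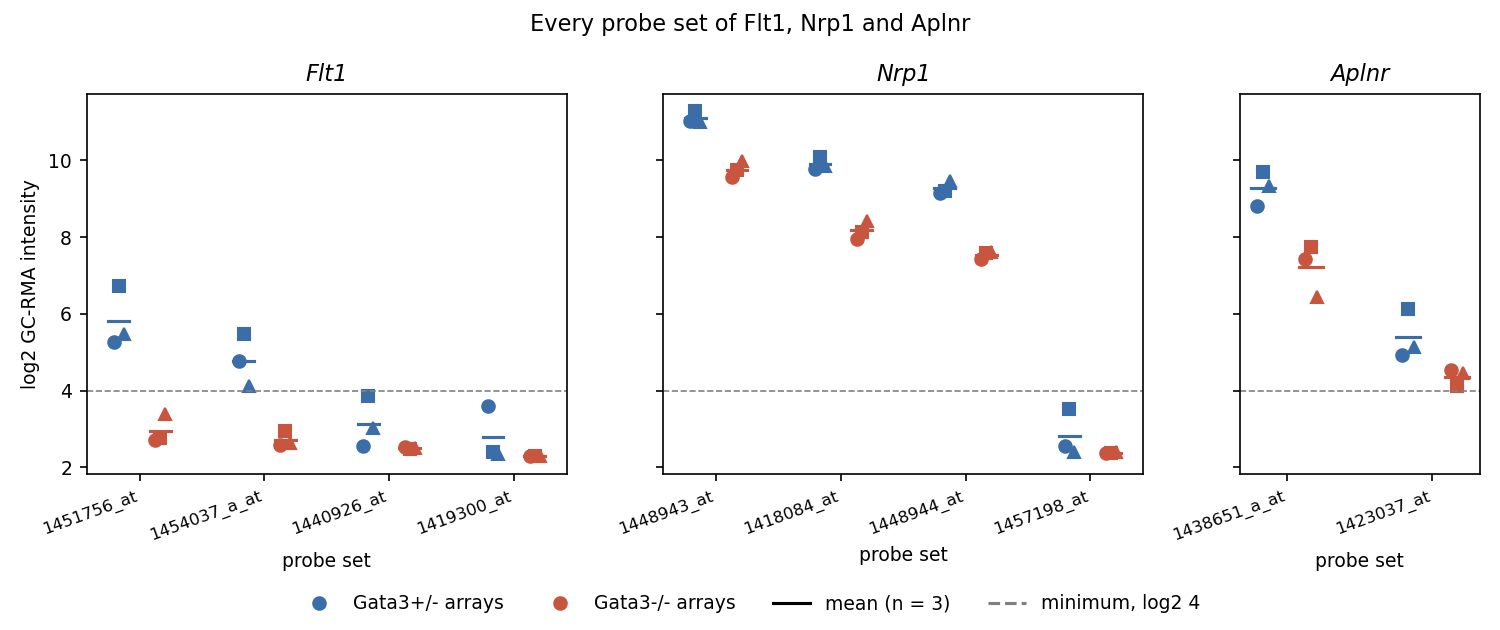
Log2 GC-RMA intensity (vertical axis) on each array for every probe set of Flt1, Nrp1 and Aplnr (horizontal axis), with Gata3+/- arrays in blue, Gata3-/- arrays in red, bars at the mean of 3 arrays and symbols by replicate number as in the plot of levels by gene. All 3 Nrp1 probe sets above the minimum and both Aplnr probe sets are lower on the Gata3-/- arrays, and 2 Flt1 probe sets cross the minimum.

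Aplnr, the apelin receptor, fell on its brighter probe set, from 8.82, 9.69 and 9.33 on the Gata3+/- arrays to 7.44, 7.74 and 6.45 on the Gata3-/- arrays. The genotypes did not overlap, and Gata3-/- array 3 was the lowest of the 6. The difference was -2.07 (SE 0.39), a 4.19-fold fall whose adjusted p of 0.0498 by limma lies just inside the threshold. The dimmer probe set, 1423037_at, read 4.93, 6.14 and 5.13 against 4.53, 4.12 and 4.45, also without overlap. Its difference of -1.03 (SE 0.34) did not pass (adjusted p = 0.142 by limma). The apelin genes Apln and Apela, which encode the ligands of the receptor, did not pass the filter on low values.

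Nostrin was the member that rose. Its only probe set read 5.95, 4.48 and 5.998 on the Gata3+/- arrays and 8.79, 7.94 and 8.86 on the Gata3-/- arrays. The lowest Gata3-/- array lay well above the highest Gata3+/- array, and in both genotypes array 2 was the lowest. The difference was 3.06 (SE 0.49, 95% interval 1.85 to 4.26, adjusted p = 0.0383 by limma). The enzyme that NOSTRIN binds, eNOS (Nos3), lay under the minimum throughout, and none of the 7 tested genes of eNOS binding and caveolae passed in limma (0 at an unadjusted p under 0.05). Among these the caveolin gene Cav1 read 8.68, 3.21 and 8.25 on the Gata3+/- arrays and 6.96, 3.27 and 8.29 on the Gata3-/- arrays, so it followed the replicate number more than the genotype. Nosip, another protein that binds eNOS, stood at 10.07 ± 0.09 and 10.08 ± 0.06 (SD, n = 3 each).

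**Figure D3:**
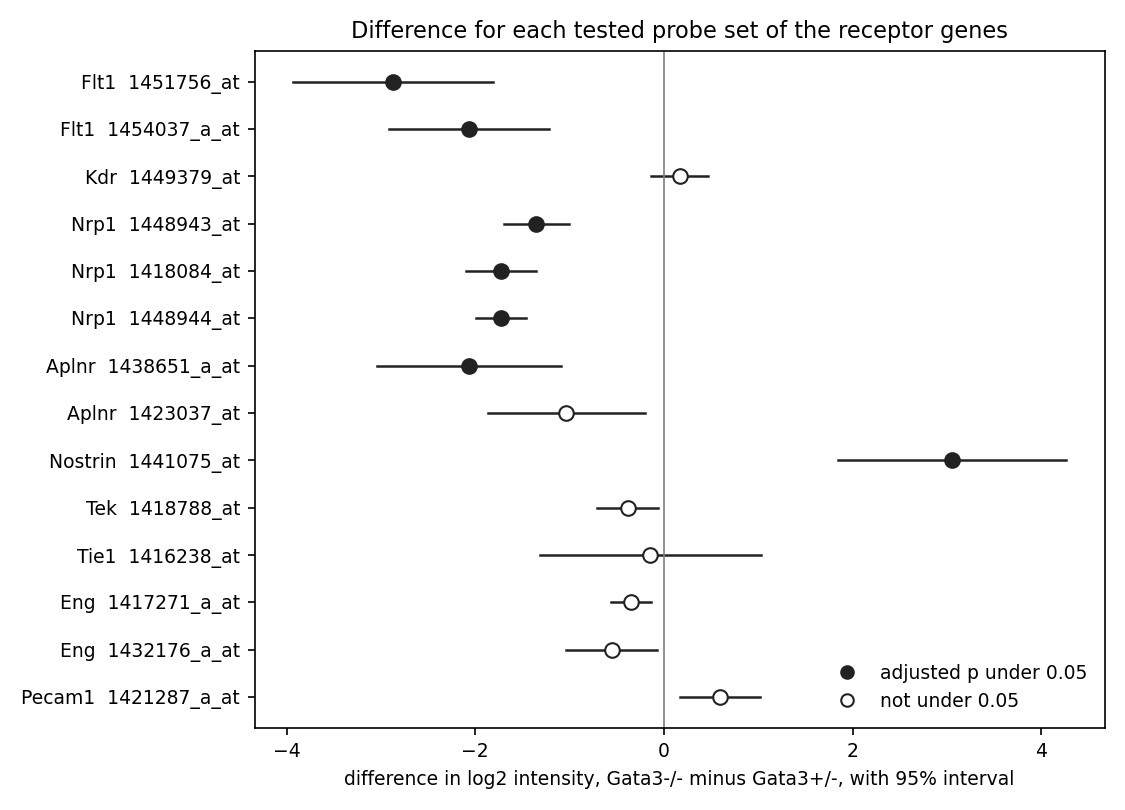
Difference in log2 intensity, Gata3-/- minus Gata3+/- (horizontal axis), with its 95% interval from limma for each of the 14 tested probe sets of the genes; filled points have an adjusted p under 0.05. The 7 filled points are both Flt1, all 3 Nrp1, 1 of 2 Aplnr probe sets and Nostrin, and the intervals of Kdr and Tie1 cross 0.

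The angiopoietin receptors did not pass. Tek read 7.20, 6.998 and 7.06 on the Gata3+/- arrays and 6.62, 6.54 and 6.95 on the Gata3-/- arrays, which lay lower by a narrow margin with no overlap. The difference was -0.39 (SE 0.13, adjusted p = 0.155 by limma). Tie1 read 7.77, 7.23 and 8.31 against 8.32, 6.74 and 7.82, and array 2 was the lowest of each genotype. Its difference of -0.15 had an interval from -1.32 to 1.03, which holds a log2 change of 1 either way (adjusted p = 0.890 by limma). Of the angiopoietins, Angpt1, which activates TEK, measured 8.05 ± 0.63 on Gata3+/- and 8.26 ± 1.05 on Gata3-/- arrays, and Angpt2, its context-dependent antagonist, at 5.15 ± 0.52 and 5.30 ± 0.06 (SD, n = 3 each).

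Eng read 8.01, 8.07 and 8.23 on the Gata3+/- arrays and 7.73, 7.81 and 7.73 on the Gata3-/- arrays. The genotypes were separate but close, with a difference of -0.35 (SE 0.09, adjusted p = 0.0812 by limma). The second probe set, 1432176_a_at, gave -0.55 (SE 0.19, adjusted p = 0.164). Of the ENG pathway, Smad5, which carries the BMP signal to the nucleus, fell by 0.66 (SE 0.13, adjusted p = 0.0498 by limma), from 7.84 ± 0.14 to 7.18 ± 0.18 (SD, n = 3 each). Smad1, with the same role, had a difference of -0.30 (adjusted p = 0.0850) and the BMP receptor gene Bmpr2 of -0.55 (adjusted p = 0.0905), neither past the threshold in limma.

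Of the junction molecules Pecam1 was measured on all arrays and Cdh5 on none. Pecam1 read 9.79, 9.52 and 10.09 on the Gata3+/- arrays and 10.54, 10.21 and 10.43 on the Gata3-/- arrays. All Gata3-/- arrays were higher, and the difference of 0.59 (SE 0.17) did not pass (adjusted p = 0.112 by limma). Pecam1 is on chromosome 11, where the 886 genes tested had a median difference of 0.33, with 94 higher and 2 lower. The other members lie on chromosomes 2, 4, 5 and 8, whose medians were between -0.06 and -0.03. The part of the chromosome 11 shift in the Pecam1 difference was not tested. Cdh5 stayed between 2.40 and 2.63 on all 6 arrays for 1 probe set and between 2.25 and 2.26 for the other, under the minimum throughout.

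The endothelial label was checked against 13 markers, of which 8 were measured. The other 5 were under the minimum on all 6 arrays, and they include Cdh5, the tight junction gene Cldn5, the sialomucin gene Emcn and the endothelial transcription factor genes Erg and Sox17. Vwf, Esam and Egfl7 were measured, at means of 8.29, 7.31 and 7.42 on the Gata3+/- arrays and 7.65, 7.16 and 7.10 on the Gata3-/- arrays. The remaining markers of the 13, Cdh5 aside, that are also members of the 10 were Pecam1, Kdr, Flt1, Tek and Tie1, all measured. Markers thus went both ways. The 10 genes are described here as receptor, junction and adaptor genes, not as a sign of endothelial cells, whose presence was not tested. The label of T-cell progenitors met the same check: 8 of 10 markers on the array, among them the T-cell receptor chain gene Cd3e and the commitment factor gene Bcl11b, were under the minimum on all arrays. The 2 tested were Cd7, with a difference of 1.16 (adjusted p = 0.118 by limma), and Cd28. Cd28 was called lower (adjusted p = 0.0443 by limma), but it passed the filter only through the Gata3+/- arrays, where it is high. Its p uses Gata3-/- values that were all under the minimum, so this test carries little weight. All 10 macrophage markers were measured, with Csf1r between 14.24 and 14.60. The Gata3 probe set, 1448886_at, read 5.39, 6.40 and 5.86 on the Gata3+/- arrays and 5.87, 6.44 and 5.48 on the Gata3-/- arrays, and it is not known whether it lies in the disrupted part.

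Markers of other cell types moved along with some of these genes. The RNA came from whole sorted populations, in which fewer cells of a type and less RNA per cell cannot be told apart. The mean level of the 10 macrophage markers was 12.62 to 12.97 on the Gata3+/- arrays and 12.07 to 12.52 on the Gata3-/- arrays, and their summed intensity 102808 to 123216 and 78793 to 93483, without overlap in either measure. The Fc receptor gene Fcgr1 fell and 9 did not pass in limma (7 of the 10 at an unadjusted p under 0.05). Members went both ways, but only Cd68 and Mertk had positive differences. The largest difference was that of Mrc1, at -1.84 (adjusted p = 0.118 by limma). Without Mrc1 the means of Gata3+/- array 2 and Gata3-/- array 1 would be almost equal, so the separation of the means hangs on that gene. The summed intensity is weighted to the brightest genes, C1qb and Csf1r. Cd68, a lysosomal glycoprotein gene, had a difference of 0.53 and no overlap between genotypes (adjusted p = 0.0541 by limma). The 4 measured of 6 plasmacytoid dendritic markers had means of 9.66 to 9.82 and 8.96 to 9.26, with Siglech and Irf8 lower. Siglech was under the minimum on all Gata3-/- arrays and passed the filter only through the Gata3+/- arrays. Its values under the minimum enter these means and its test, so the size of either difference is not measured. Without Siglech the means of the measured genes would not be lower on the Gata3-/- arrays, so they give no direction for the list. Spib, an ETS factor gene on the same list, went the other way, reading 5.47, 3.50 and 5.62 on the Gata3+/- arrays and 7.87, 7.16 and 7.77 on the Gata3-/- arrays (difference 2.74, adjusted p = 0.0652 by limma), while Ly6d and Ccr9 were under the minimum on all arrays. The part of these cell types in the falls of Flt1, Nrp1 and Aplnr was not tested.

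The OP9 stroma, also of mouse origin, would be read by the same probe sets. Of 17 stromal markers on the array 14 were measured and 0 were called by limma (1 at an unadjusted p under 0.05), and Dcn, Lum and Thy1 were under the minimum on all arrays. Their mean level was 9.33, 7.82 and 9.39 on the Gata3+/- arrays and 8.27, 7.43 and 9.31 on the Gata3-/- arrays, and their summed intensity ran from 5593 to 18318 and from 4731 to 17878. The arrays numbered 2 were thus the lowest of each genotype, as they were for Nostrin, Tie1, Tek and Pecam1. Flt1, the brightest Nrp1 probe set and both Aplnr probe sets were highest on Gata3+/- array 2. Gata3-/- array 3 and Gata3+/- arrays 1 and 3 had stromal means within 0.1 of each other. Between those arrays Flt1 stood at 3.38 against 5.26 and 5.48, Nrp1 at 9.97 against 11.03 and 11.01, Aplnr at 6.45 against 8.82 and 9.33, and Nostrin at 8.86 against 5.95 and 5.998. This sets a single Gata3-/- array, chosen with the values in view, beside 2 Gata3+/- arrays, and the Flt1 value of 3.38 lies under the minimum. The part of stroma in the differences was not tested and cannot be read from this comparison.

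**Figure D4:**
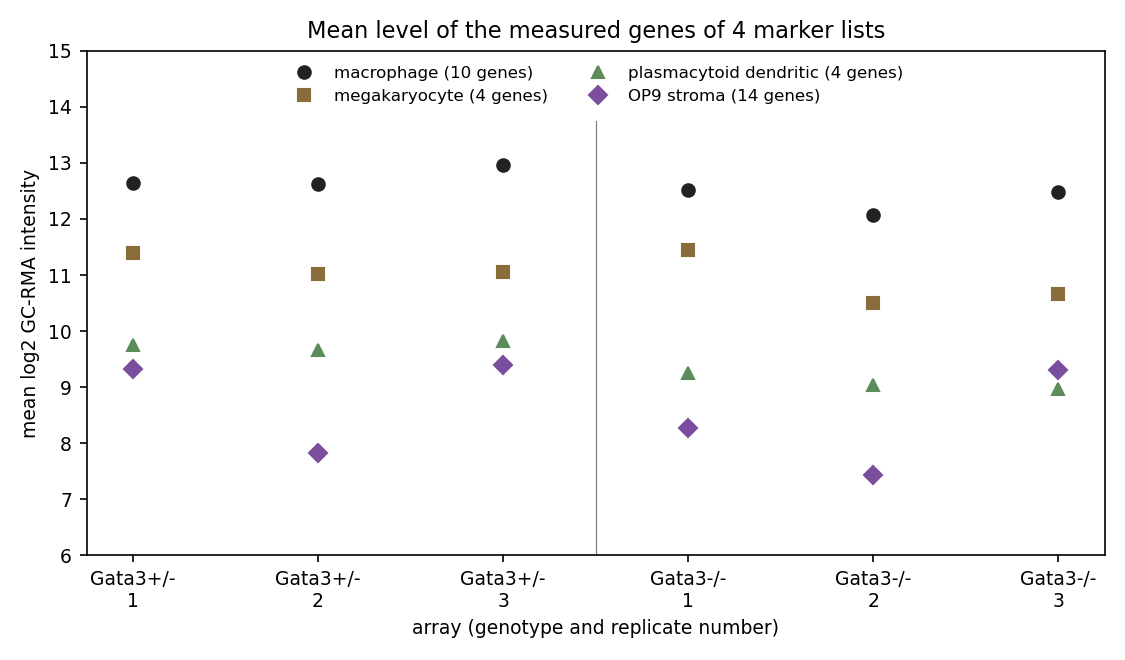
Mean log2 GC-RMA intensity (vertical axis) of the measured genes of 4 marker lists on each of the 6 arrays (horizontal axis). The means of the macrophage and plasmacytoid dendritic lists, whose single members went both ways, lie lower on the Gata3-/- arrays, at 12.07 to 12.52 and 8.96 to 9.26. The plasmacytoid dendritic means include Siglech, which is under the minimum on all Gata3-/- arrays, and their lower level rests on it. Mrc1 contributes most to the gap between the macrophage means. Means of OP9 stromal markers range from 7.43 to 9.39 and are lowest on the arrays numbered 2.

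The other genes of these pathways were grouped by role into 6 lists, which hold 122 genes on the array besides the 10. Of these, 82 were tested, 2 rose, 4 fell and 76 did not pass in limma, so that 7.32% were called against the 5.27% over all genes, and their median difference was -0.05. None of the 6 measured ligand genes passed in limma (1 at an unadjusted p under 0.05). The brightest, Tgfb1, which encodes a ligand that ENG helps to bind, stood at 12.72 ± 0.17 and 12.76 ± 0.15 (SD, n = 3 each), and Vegfb, a ligand of FLT1 and not of KDR, had a difference of -0.49 (adjusted p = 0.127 by limma). Vegfa, Pgf, Apln and Apela did not pass the filter on low values.

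None of 18 other receptors and coreceptors passed in limma (7 at an unadjusted p under 0.05), and their median was 0.11, with 10 positive and 8 negative. Notch4, a Notch receptor of endothelium, was under the minimum on all Gata3+/- arrays and read 5.48, 4.37 and 4.65 on the Gata3-/- arrays. It was at least 1.78-fold higher in Gata3-/- cells, with an adjusted p of 0.0505 just outside the threshold in limma. Notch4 passed the filter only through the Gata3-/- arrays, where it is high. Its p uses Gata3+/- values under the minimum, so this test carries less weight than the bound. Calcrl, a gene of the adrenomedullin receptor, read 8.61, 8.61 and 8.75 against 9.36, 9.11 and 9.60, a difference of 0.70 (adjusted p = 0.0539 by limma). The coreceptor gene Ramp2 on the same list was under the minimum on all arrays. Notch4 and Calcrl are named for lying closest to the threshold on that list. The receptors with the highest levels, Tgfbr1, Tgfbr2 and Bmpr2, had differences of -0.25, -0.44 and -0.55, none past the threshold.

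Of 25 transcription factors of endothelium and haemangioblast 15 were tested, 2 fell and 13 did not pass, with a median of -0.22 and 12 negative. Fli1, an ETS factor shared by blood and endothelium, fell from 11.78 ± 0.15 to 11.12 ± 0.11 (SD, n = 3 each), a difference of -0.65 (SE 0.11, adjusted p = 0.0385 by limma). Mef2c, a MADS-box factor, fell from 13.13 ± 0.03 to 12.43 ± 0.16, a difference of -0.70 (SE 0.10, adjusted p = 0.0349). Lmo2 and Tal1 form a complex in the haemangioblast. Lmo2 differed by -0.45 (adjusted p = 0.0812 by limma) and Tal1 by -0.24 (adjusted p = 0.512). Etv2, Erg, Sox7, Sox17 and Sox18, the factors that set endothelial identity, were under the minimum on all arrays.

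Among 27 endothelial junction and surface genes 13 were tested, with a median of -0.50 and 11 negative. Cd34, a sialomucin of progenitors and vessels, fell from 10.62 ± 0.28 to 9.74 ± 0.14 (SD, n = 3 each; difference -0.88, adjusted p = 0.0479 by limma) and 12 did not pass. The von Willebrand factor gene Vwf, of endothelium and megakaryocytes, read 8.34, 8.23 and 8.29 on the Gata3+/- arrays and spread over 8.96, 6.67 and 7.32 on the Gata3-/- arrays. The 4 measured megakaryocyte markers had means of 11.01 to 11.40 and 10.50 to 11.44, so the genotypes overlapped. Of 23 tested signal transducers 3 passed. The adaptor genes Nck2 and Grb2, which couple receptor kinases to the cytoskeleton and to Ras, rose by 0.80 (SE 0.13, adjusted p = 0.0383) and 0.55 (SE 0.09, adjusted p = 0.0420), and Smad5 fell as given above. Grb2 lies on chromosome 11, with its median of 0.33.

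**Figure D5:**
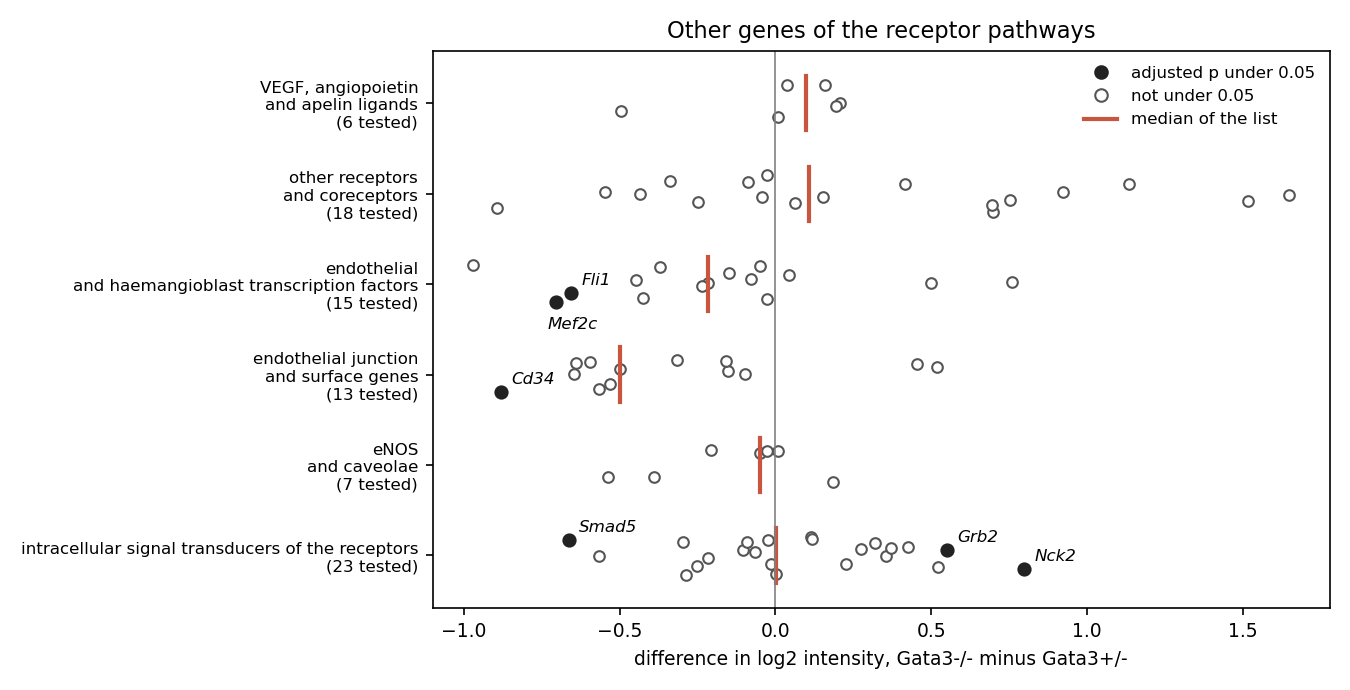
Difference in log2 intensity, Gata3-/- minus Gata3+/- (horizontal axis), for each tested gene of the 6 pathway lists; points are genes, filled where the adjusted p is under 0.05, and red bars are list medians. Named points are the 6 called genes, and the medians run from -0.50 for junction and surface genes to 0.11 for other receptors.

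For 3 members the genes with the most similar pattern were found by the root mean square difference of log2 values over the 6 arrays, after each gene was centred on its mean. The nearest to Flt1 among all genes tested were Cd28, a T-cell costimulatory receptor (0.348), the Fc receptor-like gene Fcrls (0.554) and the protease gene Prtn3 (0.616). Flt1 and Cd28 were both under the minimum on all Gata3-/- arrays, where values carry little information. The nearest to Aplnr were the predicted gene Gm9054 (0.303), Tmem176b, a membrane protein gene of myeloid cells (0.307), and the sialyltransferase gene St6galnac5 (0.334). The nearest to Nostrin were Strip2 (0.170), Mir155hg, the host gene of a microRNA of activated leukocytes (0.214), and Serpinb9, an inhibitor of granzyme B (0.227). All 3 share the low value of Nostrin on both arrays numbered 2. No endothelial gene of the lists was among these 9. The nearest of the other members ranked 16 for Flt1 (Aplnr, 0.767), 65 for Aplnr (Nrp1, 0.636) and 548 for Nostrin (Pecam1, 1.30). Likeness over 6 arrays of shared culture and sort is a description, since any gene that differs between genotypes by a like amount will be near.

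The 4 calls were sensitive to the arrays used. Leaving out any 1 array left 0 of them past the threshold in limma, with adjusted p-values of 0.0758 to 0.112 for Flt1, 0.0673 to 0.105 for Nrp1, 0.0916 to 0.136 for Aplnr and 0.0783 to 0.117 for Nostrin, although all 4 had an unadjusted p under 0.05 in each of these fits. The genes were chosen on the same arrays, so that carries little weight. Over all genes, 0 to 4 were called in those fits. Without both arrays numbered 2, Nostrin alone of the 4 passed (adjusted p = 0.0480), and without the filter on low values 0 of them passed, again with all 4 at an unadjusted p under 0.05 in limma.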

How the data were processed

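Labelled cRNA of 6 sorted populations, 3 per genotype, was hybridised to Affymetrix arrays, and genotype and replicate number were taken from the titles. The values deposited by the authors are linear intensities of 45101 probe sets, made with GC-RMA per the labels, which corrects background by probe sequence and normalizes between arrays. GCOS is named in the submitters' processing notes, without a version, and its settings are not given. Values were log2-transformed with no further normalization, 64 control probe sets were left out, and 20102 that reached log2 4 (an intensity of 16) on at least 3 arrays were tested with limma 3.58.1 (lmFit, eBayes, two-sided) in R 4.3.3. P-values were adjusted by Benjamini-Hochberg over all of them, with a threshold of 0.05. Where a genotype lay under the minimum on all its arrays, the fold is a lower bound against the minimum. Precision is limited by the number of arrays.

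Names were taken from the platform annotation, by probe sets of a single symbol, and chromosomes and upstream sequences from RefSeq tables of GRCm38.p6, matched by symbol for 7 of the 10 members. Named genes were the 10 members, called genes of each pathway list (or the 3 with the highest levels), markers, and the 3 nearest genes of Flt1, Aplnr and Nostrin; other genes were named with their values in view. The members and lists were chosen with earlier results of these data known. No pairing of arrays was assumed. The procedure was tested on simulated data. Plots were drawn with matplotlib 3.10.9 in Python 3.11.15, and permutation tests used scipy 1.17.1. The alternatives were other filters, normalizations and variance models, a replicate block, the mean of a gene's probe sets and fits without single arrays.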

Additional observations from a re-analysis of the deposited data

How the results depend on the processing

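Of the 10 genes 4 were called, and of all genes 543. Without a filter 0 and 98 were called, and with the replicate block 2 and 298. In that block fit Nrp1 and Nostrin passed (adjusted p = 0.0431 and 0.0399) and Flt1 and Aplnr did not (0.0539 and 0.0592). Deviations from the genotype means correlated by 0.005, 0.695 and 0.429 between arrays numbered 1, 2 and 3. Gata3+/- arrays 2 and 3 correlated best with the Gata3-/- array of their own number. Gata3+/- array 1 correlated best with Gata3-/- array 3 (0.424). Whether the numbers pair the arrays is not settled by these values, and the main fit assumed no pairing. A variance trend with robust eBayes gave 4 and 824. Leaving out each array in turn left 0 of the 10 genes and 0 to 4 of all genes. Without both arrays numbered 2, chosen after seeing the data, 1 and 3 were called. The stricter filter at log2 6 dropped Flt1 and left 3 of the 10. The same 4 were called with quantile normalization, median centring and the mean of a gene's probe sets. Of 125 differences of single members under 14 alternatives, 122 kept their sign; the other 3 were of Tie1, which was not called in any fit. Lowest and highest fitted differences were -3.15 and -2.32 for Flt1, whose Gata3-/- values all lie under the minimum so that these sizes are not measured and the lower bound of 3.54-fold applies, -1.60 and -1.25 for Nrp1, -2.33 and -1.55 for Aplnr, and 2.56 and 3.35 for Nostrin. Only 3 arrays per genotype limit the precision of each difference.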
